A study of Mus musculus with 24 samples.

Results

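Purkinje cells are the output neurons of the cerebellar cortex, and 9 genes commonly used to recognise them were followed here: Pcp2, Calb1, Car8, Ppp1r17, Rgs8, Pvalb, Slc1a6, Aldoc and Gad1. Every probe set that the platform annotation gives to one of these symbols alone was taken, without regard to its values, which gave 17 probe sets of the 45037 tested and 9 of 17097 named genes. Calb1 had 4 probe sets, Pcp2 had 3, and Car8, Aldoc and Gad1 had 2 each. The remaining members, Ppp1r17, Rgs8, Pvalb and Slc1a6, had 1 each.

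Purkinje cells receive excitation from granule cells and climbing fibres, handle large calcium signals in their dendrites, and send GABA-releasing axons to the deep cerebellar and vestibular nuclei. The members cover this physiology: Calb1 and Pvalb encode calcium buffers, Car8 encodes a carbonic anhydrase-like protein that binds the IP3 receptor of calcium stores, and Pcp2, Rgs8 and Ppp1r17 encode regulators of G protein and phosphatase signalling. Slc1a6 encodes the glutamate transporter EAAT4, Aldoc encodes the glycolytic enzyme aldolase C (zebrin II) that marks stripes of Purkinje cells, and Gad1 encodes the GABA-synthesising enzyme GAD67. Aldoc, Gad1, Pvalb and Calb1 are also known from other cells, namely astrocytes for Aldoc and inhibitory or other neurons for the rest.

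RNA was measured on 24 Affymetrix mouse expression arrays from cerebellum, brainstem and liver of Atxn2-CAG42-Knock-In (CAG42) and wild-type (WT) mice, with 4 arrays in each of the 6 groups. CAG42 mice were homozygous for an expanded CAG repeat in exon 1 of the mouse Atxn2 gene. The gene stayed under its own promoter in all cells. Per the study, the neomycin selection cassette had been excised and the selection markers were almost, but not fully, removed from the locus. Controls were WT littermates from the same line on a C57BL/6 background, and per the study's methods the mice were 18 months old. The labels give no sex and do not say whether arrays of different tissues with the same number came from 1 mouse. Per the study's account, the 4 replicates of a group came from 4 animals.

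Levels are log2 values from RMA, the array method that corrects background, equalises arrays and combines the probes of a probe set, so that a difference of 1 is a doubling. Median levels over all probe sets were 4.42 to 4.54 on cerebellum arrays, 4.56 to 4.62 on brainstem arrays and 4.13 to 4.25 on liver arrays. Levels of different probe sets are not comparable, and no detection calls were used, so a level near or below these medians cannot be told from background. A gene or probe set was called at a Benjamini-Hochberg adjusted p (limma) under 0.05, adjusted over all probe sets within a comparison. Hepatocyte markers averaged 12.12 to 12.44 on liver arrays, which fits that label. Liver WT replicate 1 stood apart, with an array weight (limma, 1 being average) of 0.122, and liver results that rest on it are given with and without it.

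Promoter windows were available for 6 of the 9 members, and 4 are printed because they belong to the genes that show the regional contrast most plainly: Pcp2 and Slc1a6 were called higher in cerebellum than in brainstem, and the brightest probe sets of Aldoc and Gad1 were not. Each line gives the 250 bases before the most upstream RefSeq start, 5′ to 3′ on the gene's own strand, with capitals marking a searched motif. On GRCm38.p6 these are Pcp2 at chr8:3625548-3625797 (minus strand, 52.8% GC), Slc1a6 at chr10:78780246-78780495 (plus strand, 78.8% GC), Aldoc at chr11:78322823-78323072 (plus strand, 55.2% GC) and Gad1 at chr2:70561879-70562128 (plus strand, 58.0% GC).
Pcp2: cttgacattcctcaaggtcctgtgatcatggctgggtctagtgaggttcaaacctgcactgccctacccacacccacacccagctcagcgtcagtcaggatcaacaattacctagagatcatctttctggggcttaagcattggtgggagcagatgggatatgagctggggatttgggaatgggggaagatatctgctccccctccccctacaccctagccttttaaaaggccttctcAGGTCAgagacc
Slc1a6: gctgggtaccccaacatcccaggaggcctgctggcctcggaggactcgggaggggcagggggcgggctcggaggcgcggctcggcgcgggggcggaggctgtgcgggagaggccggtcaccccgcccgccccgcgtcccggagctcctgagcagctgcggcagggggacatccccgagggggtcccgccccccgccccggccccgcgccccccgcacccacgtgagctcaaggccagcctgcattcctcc
Aldoc: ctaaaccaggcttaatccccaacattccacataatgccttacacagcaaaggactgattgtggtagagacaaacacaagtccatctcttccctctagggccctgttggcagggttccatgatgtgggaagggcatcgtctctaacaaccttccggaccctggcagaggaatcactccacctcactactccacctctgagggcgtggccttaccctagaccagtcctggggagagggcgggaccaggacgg
Gad1: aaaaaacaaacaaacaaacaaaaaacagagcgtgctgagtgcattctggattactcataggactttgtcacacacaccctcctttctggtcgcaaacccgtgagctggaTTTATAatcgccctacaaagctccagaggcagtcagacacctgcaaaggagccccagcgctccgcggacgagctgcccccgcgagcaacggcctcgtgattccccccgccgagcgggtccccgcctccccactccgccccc

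These windows were searched on both strands for 3 short motifs, which do not overlap each other in them. AGGTCA, the core letters read by nuclear receptors such as RORα, lay 12 to 7 bases before the start of Pcp2 and in no other member's window, and 13.8% of the windows of 27025 genes hold it. TATAAA, the TATA box, lay on the opposite strand 141 to 136 bases before the start of Gad1, where it reads TTTATA, and 13.0% of all windows hold it. TAATTA, a homeodomain site, was in none of the 6 windows and in 4.91% of all windows. The windows of Rgs8 and Pvalb held none of the 3. A match is a string of letters and not a measured binding site.

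In WT mice 7 of the 9 genes, by their brightest probe set, were higher in cerebellum than in brainstem, and Aldoc and Gad1 were not. That exception depends on the processing. With quantile normalization over all arrays, chosen after seeing the data, Aldoc (log2 difference 0.20) and Gad1 (0.38) were called higher too. With the mean of each gene's probe sets Aldoc was called lower (-0.27) and Gad1 higher (0.46). Quantile normalization over all arrays also raised Pcp2 from 3.92 to 4.52, Ppp1r17 from 3.78 to 4.18 and Calb1 from 2.20 to 2.69. Rgs8 rose from 2.20 to 2.71, Slc1a6 from 2.22 to 2.56 and Pvalb from 1.04 to 1.42. Car8 went the other way, from 4.36 to 4.23. The raised Pcp2 and Pvalb values lie above the intervals given below, which do not cover the choice of normalization. By probe set, 14 of 17 were called higher, where 18.8% of all probe sets were, and 1 of 17 was called lower, where 28.2% were. The median difference of the 9 genes was 2.20, against -0.07 over all probe sets. In a sample of whole tissue, fewer cells of a type and less RNA per cell cannot be told apart. The plot of levels by array shows each gene in the 3 tissues, and the plot of regional differences shows every probe set.

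**Figure D1:**
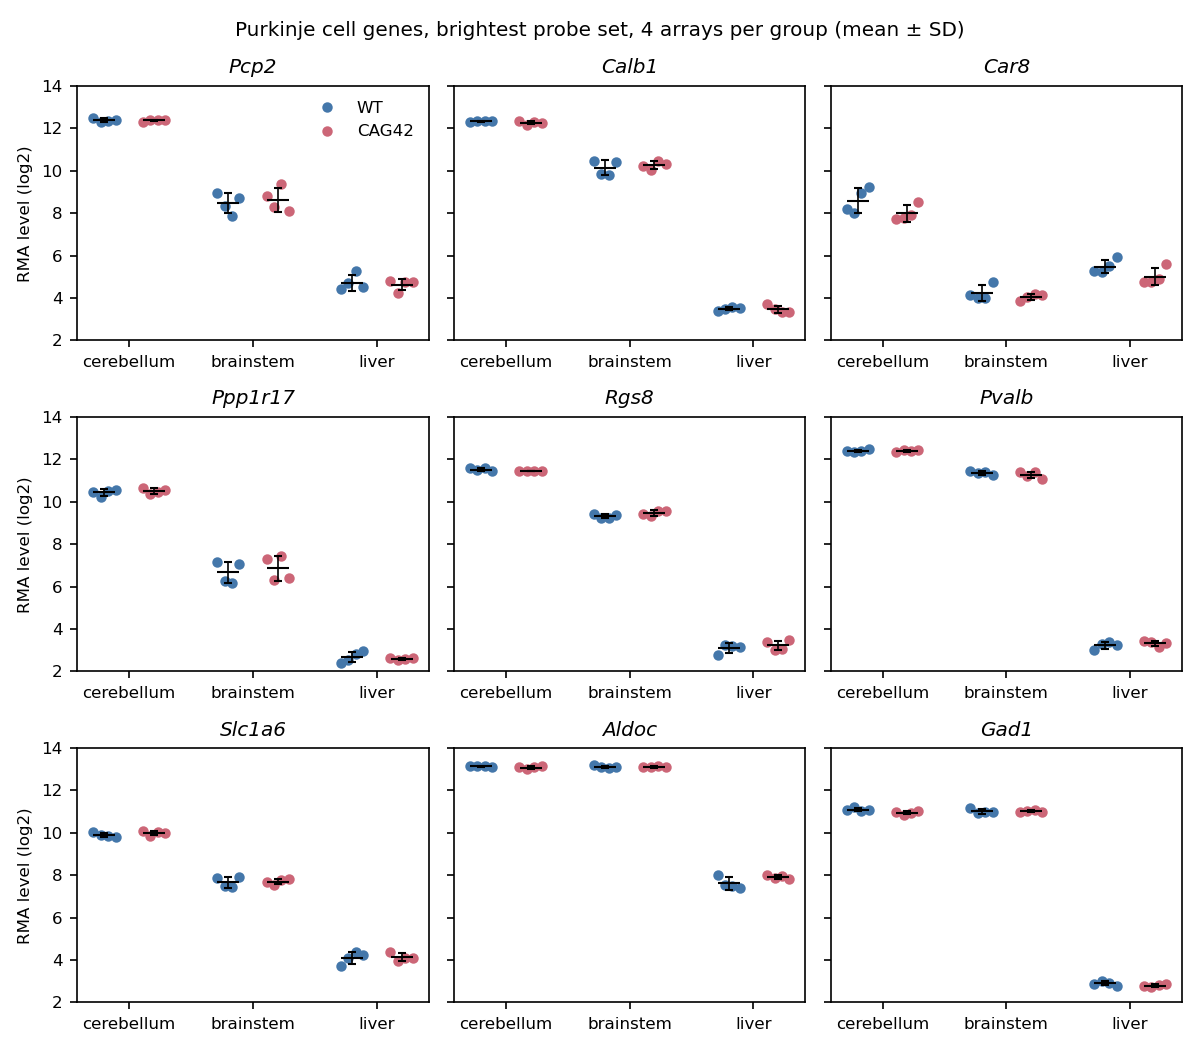
RMA level (log2, vertical axis) of the brightest probe set of each of the 9 Purkinje cell genes in cerebellum, brainstem and liver (horizontal axis). Each point is 1 array of WT or CAG42 mice and the bars give the mean and SD of 4 arrays. Genotypes overlap or nearly touch within each tissue, while tissues are far apart except for Aldoc, Gad1 and Car8. Cerebellum and brainstem levels lie side by side for Aldoc and Gad1. For Car8 brainstem and liver lie close, with the highest WT brainstem array at 4.78 and the lowest CAG42 liver array at 4.76.

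Among the signalling regulators, Pcp2, whose protein acts on Gi and Go proteins, was at 12.51, 12.31, 12.36 and 12.40 in the cerebellum of WT replicates 1 to 4. In brainstem the same probe set, 1419085_PM_at, was at 8.96, 8.35, 7.87 and 8.74. Every cerebellum array stood above every brainstem array, and the difference of 3.92 (95% interval 3.43 to 4.40) was 15.1-fold (limma, adjusted p = 1.44e-12). Of its other probe sets, 1419084_PM_a_at was 4.67 higher in cerebellum on the log2 scale, and 1424944_PM_at was 3.53 higher against a brainstem level of 3.18, below the array medians, so that the second may understate the contrast. Ppp1r17, an inhibitor of protein phosphatases, was at 10.44 ± 0.16 in WT cerebellum and 6.67 ± 0.52 in WT brainstem (SD, n = 4), a difference of 3.78 or 13.7-fold (limma, adjusted p = 1.65e-12). Rgs8, which shortens G protein signals, was at 11.52 ± 0.06 and 9.32 ± 0.11 (SD, n = 4), 4.60-fold apart (limma, adjusted p = 3.92e-14).

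Of the calcium buffers, Calb1 and Pvalb were both higher in cerebellum but by different sizes. Calb1 was at 12.34 ± 0.03 in WT cerebellum and 10.14 ± 0.36 in WT brainstem (SD, n = 4), 4.60-fold apart by probe set 1417504_PM_at (limma, adjusted p = 9.50e-13). Its dimmer probe sets gave log2 differences of 2.36, 3.09 and 3.52, the first against a brainstem level of 3.70, below the array medians. Pvalb was at 12.40 ± 0.06 and 11.37 ± 0.08 (SD, n = 4), and this difference of 1.04 (95% interval 0.85 to 1.22), or 2.05-fold, was the smallest among the 7 genes called (limma, adjusted p = 1.22e-09). Car8 was higher in cerebellum by 4.36 on the log2 scale by probe set 1424958_PM_at (limma, adjusted p = 8.87e-13) and by 4.40 by 1457904_PM_at. Its WT brainstem levels, 4.23 and 4.09, lie below the array medians and cannot be told from background, so these differences may understate the contrast. Slc1a6, the transporter, was at 9.89 ± 0.10 and 7.67 ± 0.26 (SD, n = 4), 4.67-fold apart (limma, adjusted p = 9.98e-13).

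Aldoc was about as high in both brain regions, at 13.14 ± 0.01 in WT cerebellum and 13.12 ± 0.04 in WT brainstem (SD, n = 4). The log2 difference of 0.01 had a 95% interval of -0.18 to 0.21 (limma, adjusted p = 0.925). Its second probe set, 1424714_PM_at, was called the other way, 0.55 lower in cerebellum (limma, adjusted p = 0.000647), so the 2 probe sets of Aldoc disagree. Gad1 was at 11.09 ± 0.09 and 11.01 ± 0.11 (SD, n = 4), a log2 difference of 0.08 with an interval of -0.07 to 0.24 (limma, adjusted p = 0.383). Its second probe set, 1416562_PM_at, was called higher in cerebellum by 0.83 (limma, adjusted p = 0.000358).

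**Figure D2:**
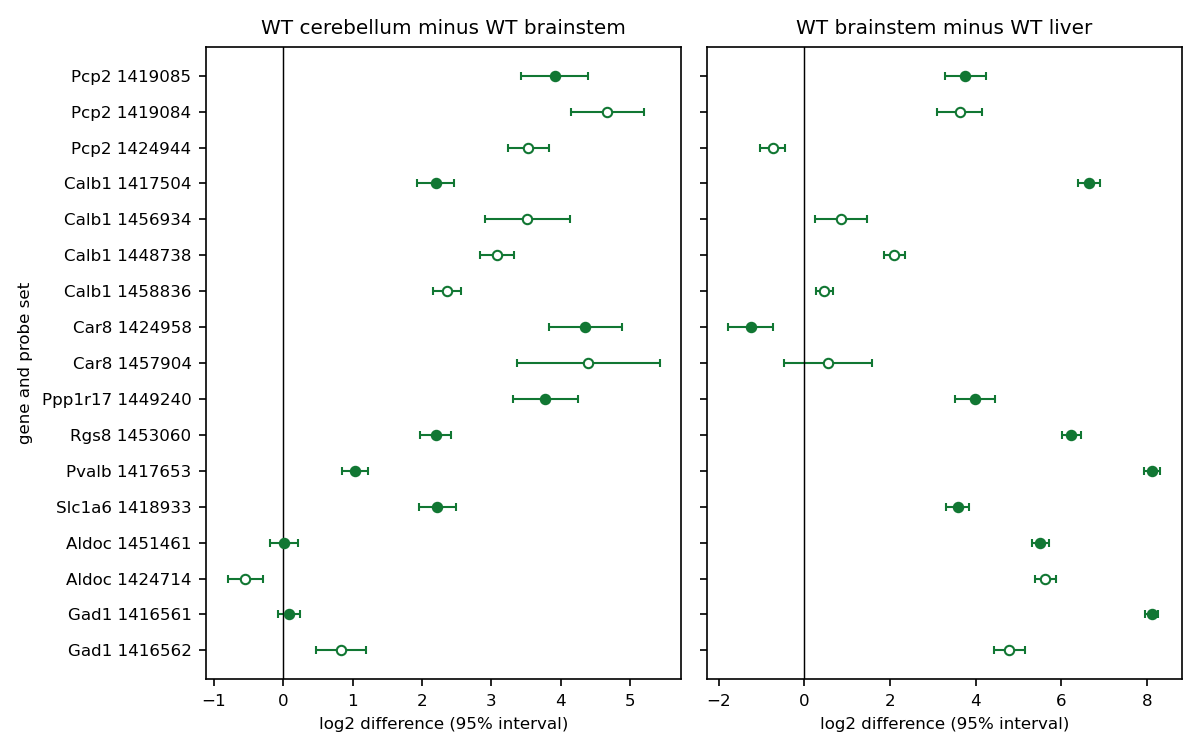
Log2 differences between tissues (horizontal axis) with 95% intervals for the 17 probe sets of the 9 genes (vertical axis) in WT mice, with filled points for the brightest probe set of each gene. Cerebellum minus brainstem is far to the right of 0 except for both probe sets of Aldoc and the brighter one of Gad1, and brainstem minus liver turns below 0 for 1 probe set each of Car8 and Pcp2.

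Against liver all 9 genes and all 17 probe sets were called higher in WT cerebellum, where 44.4% of all probe sets were. The log2 differences were 9.16 for Pvalb, 8.85 for Calb1, 8.43 for Rgs8, 8.19 for Gad1, 7.76 for Ppp1r17, 7.67 for Pcp2, 5.80 for Slc1a6, 5.53 for Aldoc and 3.11 for Car8. WT liver levels of Pvalb, Calb1, Rgs8, Gad1, Ppp1r17 and Slc1a6, at 2.68 to 4.09, lie below the liver array medians. Their differences may understate the contrast, and no order among genes is read from them.

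Brainstem samples also had most of these transcripts at levels above liver. Of the 17 probe sets, 14 were called higher in WT brainstem than in WT liver, where 46.5% of all probe sets were, and 2 were called lower, where 34.3% were. Pvalb and Gad1 stood 8.13 and 8.11 above liver on the log2 scale, Calb1 6.65, Rgs8 6.23 and Aldoc 5.51. Ppp1r17 stood 3.99, Pcp2 3.76 and Slc1a6 3.58 above liver. Car8 went the other way by probe set 1424958_PM_at, 1.25 lower in brainstem than in liver (log2 difference -1.25, 95% interval -1.77 to -0.73; limma, adjusted p = 9.16e-05), where the brainstem level is below the array medians. Its second probe set gave 0.55 in the opposite direction and was not called (limma, adjusted p = 0.312). The dimmest Pcp2 probe set, 1424944_PM_at, was also lower in brainstem than in liver, by 0.73 (limma, adjusted p = 5.45e-05), with levels of 3.12 to 3.31 and 3.50 to 4.38 that all lie near or below the array medians.

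For 6 genes (Pcp2, Calb1, Ppp1r17, Rgs8, Pvalb and Slc1a6) the order of tissues by the brightest probe set was therefore cerebellum, then brainstem, then liver, each step being called. For Aldoc and Gad1 cerebellum and brainstem were neighbours that did not pass the test by the brightest probe set. For Car8 liver stood above brainstem by the brightest probe set, and the second probe set went the other way without being called. CAG42 mice gave the same counts of probe sets between cerebellum and brainstem, 14 higher and 1 lower.

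No Purkinje cell gene was called different between CAG42 and WT cerebellum (0 of 17 probe sets, where 0.0444% of all probe sets were called). At an unadjusted p under 0.05, 3 of 17 passed, where 3.59% of all did: Car8 1424958_PM_at and Aldoc 1424714_PM_at below WT, and Pcp2 1424944_PM_at above it. All adjusted p were 1.00 (limma). In 2 of 17 probe sets, Rgs8 and Calb1 1448738_PM_at, all CAG42 arrays lay below all WT arrays, where 3.94% of all probe sets did not overlap in either direction. Of the 17 differences, 12 were below 0, where 52.4% of all were. The median over the 9 genes was -0.06, against -0.0068 over all probe sets. A fit of the 8 cerebellum arrays alone also called 0 of 17, with 2 at an unadjusted p under 0.05 and a lowest adjusted p of 0.838 (limma). That fit called only 10 of all 45037 probe sets.

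Among the signalling regulators, Pcp2 in CAG42 cerebellum was at 12.32, 12.40, 12.40 and 12.39, all within the WT range given above. The difference of -0.02 had a 95% interval of -0.50 to 0.46, and of -0.17 to 0.13 when cerebellum arrays alone set the spread. Its dimmest probe set was at 6.65, 6.52, 6.99 and 6.68 in WT and 6.86, 7.27, 7.11 and 6.86 in CAG42 cerebellum. Those CAG42 arrays stood higher on the whole but overlapped the highest WT array, with a difference of 0.32 (95% interval 0.02 to 0.61; exact permutation test, two-sided, p = 0.0857). The middle probe set of Pcp2, 1419084_PM_a_at, differed by 0.05 (95% interval -0.48 to 0.57).

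Rgs8 was at 11.58, 11.48, 11.57 and 11.46 in WT and 11.46, 11.45, 11.44 and 11.46 in CAG42 cerebellum. The CAG42 arrays were all lower, by a margin smaller than the rounding of these values in the closest pair. Its difference of -0.07 (95% interval -0.29 to 0.15) gave the smallest p that 4 against 4 arrays allow, 0.0286 (exact permutation test, two-sided), and was among the smallest in size. Ppp1r17 was at 10.47, 10.21, 10.51 and 10.58 in WT and 10.67, 10.35, 10.47 and 10.57 in CAG42 cerebellum. These arrays overlapped, with a difference of 0.07 (95% interval -0.40 to 0.54).

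Calb1 by its brightest probe set was at 12.29, 12.35, 12.36 and 12.35 in WT and 12.33, 12.17, 12.31 and 12.25 in CAG42 cerebellum. The groups overlapped, at a difference of -0.07 (95% interval -0.34 to 0.19). By 1448738_PM_at, however, WT was at 8.70, 8.90, 8.66 and 8.85 and CAG42 at 8.64, 8.60, 8.51 and 8.60. Here every CAG42 array was lower, by 0.19 on average (log2 difference -0.19, 95% interval -0.44 to 0.05; exact permutation test, two-sided, p = 0.0286). The other Calb1 probe sets differed by -0.15 and -0.09 with overlapping arrays.

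Pvalb, the other calcium buffer, was at 12.39, 12.33, 12.41 and 12.48 in WT and 12.35, 12.45, 12.38 and 12.44 in CAG42 cerebellum. The arrays interleaved and the means were 12.40 ± 0.06 and 12.41 ± 0.05 (SD, n = 4). The 95% interval of the difference, -0.18 to 0.19, was narrower than those of Pcp2, Rgs8, Ppp1r17 and Calb1. These widths rest on the spread shared by all tissues and do not rank the genes by their spread in cerebellum. The SD within groups in cerebellum was smaller for Rgs8, at 0.043, than for Pvalb, at 0.052. It was 0.057 for Calb1, 0.068 for Pcp2 and 0.15 for Ppp1r17.

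Slc1a6 was at 10.04, 9.88, 9.87 and 9.79 in WT and 10.08, 9.86, 10.05 and 10.01 in CAG42 cerebellum. CAG42 arrays were mostly higher and overlapped WT, at a difference of 0.11 (95% interval -0.16 to 0.38). Aldoc was at 13.14, 13.14, 13.14 and 13.11 in WT and 13.09, 13.00, 13.09 and 13.13 in CAG42, where 1 CAG42 array lay above the lowest WT array. Its difference was -0.06 (95% interval -0.25 to 0.14; exact permutation test, two-sided, p = 0.0571). The second Aldoc probe set was at 8.23, 8.004, 8.66 and 8.18 in WT and 7.77, 8.07, 7.88 and 8.24 in CAG42, a difference of -0.27 (95% interval -0.53 to -0.02) with overlapping arrays (exact permutation test, two-sided, p = 0.200).

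Gad1 was at 11.07, 11.22, 11.02 and 11.07 in WT and 10.98, 10.83, 10.94 and 11.03 in CAG42 cerebellum. Of the CAG42 arrays, 1 lay above the lowest WT array and the others lay below all of them. The difference was -0.15 (95% interval -0.30 to 0.01; exact permutation test, two-sided, p = 0.0571). Its second probe set differed by -0.08 with overlapping arrays.

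The size of change that could have been called depends on the spread used and on how many other probe sets passed. With the spread shared by all 3 tissues, a call in cerebellum needed a log2 difference of 0.39 for Gad1, 0.48 for Pvalb and 1.24 for Pcp2. Fitted on cerebellum arrays only, it needed 0.61 for Gad1, 0.52 for Pvalb and 0.56 for Pcp2. For the probe sets of Car8 it needed 1.34 and 2.65 in the first case and 2.38 and 4.67 in the second.

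**Figure D3:**
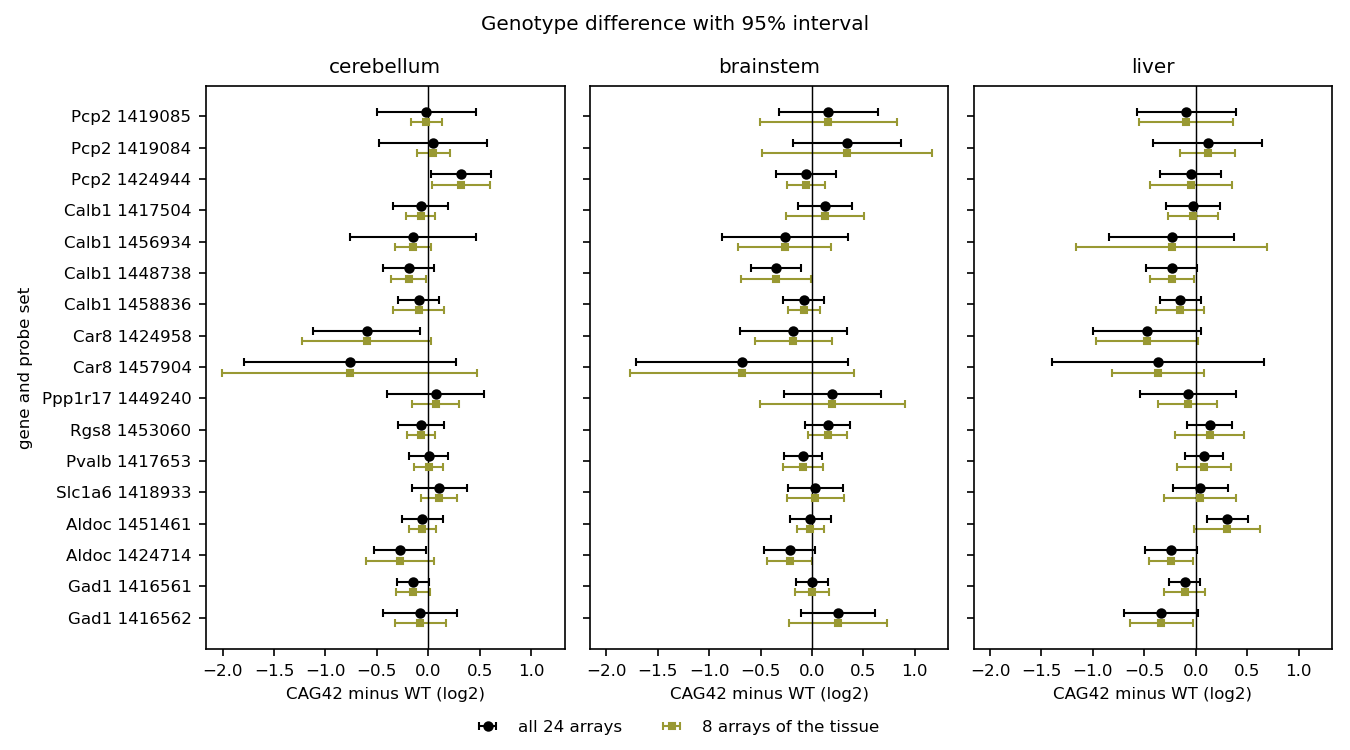
CAG42 minus WT (log2, horizontal axis) with 95% intervals for the 17 probe sets (vertical axis) in cerebellum, brainstem and liver. The 2 markers give the fit over all 24 arrays and the fit of that tissue's 8 arrays. Of the intervals over all 24 arrays, 3 exclude 0 in cerebellum and 1 each in brainstem and liver, and 1457904_PM_at of Car8 has the widest.

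Car8 had the largest genotype difference of the 9 genes in cerebellum and also the largest spread between arrays of 1 genotype. Probe set 1424958_PM_at was at 8.19, 7.998, 8.95 and 9.21 in WT and 7.72, 7.77, 7.90 and 8.55 in CAG42 cerebellum. WT replicates 3 and 4 stood highest, CAG42 replicate 4 stood above WT replicates 1 and 2, and the other CAG42 arrays lay lowest. The means of 8.59 ± 0.59 and 7.99 ± 0.38 (SD, n = 4) differed by -0.60 (95% interval -1.12 to -0.08), or 0.659-fold (limma, unadjusted p = 0.0261, adjusted p = 1.00; exact permutation test, two-sided, p = 0.171). With cerebellum arrays alone the interval was -1.23 to 0.03. Leaving out 1 array at a time gave differences of -0.80 to -0.39.

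The second Car8 probe set, 1457904_PM_at, was high and low on the same arrays. In WT cerebellum it was at 7.60, 7.37, 9.23 and 9.74, and in CAG42 cerebellum at 7.21, 7.45, 7.38 and 8.85. WT replicates 3 and 4 and CAG42 replicate 4 stood apart from the other 5 arrays, and the groups overlapped. The lowest and highest of the 8 arrays were 5.76-fold apart, against 2.81-fold for the first probe set and 1.15-fold for Pcp2 on the same arrays. The genotype difference was -0.76 (95% interval -1.79 to 0.27; exact permutation test, two-sided, p = 0.229).

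Other tissues repeated part of this order for Car8. In brainstem 1457904_PM_at was at 3.58, 3.07, 3.95 and 5.76 in WT and 3.07, 3.06, 3.72 and 3.78 in CAG42. In liver the first probe set was at 5.30, 5.22, 5.49 and 5.92 in WT and 4.76, 4.77, 4.90 and 5.60 in CAG42. Replicate 4 was the highest of its group in each tissue by both probe sets, except by 1424958_PM_at in CAG42 brainstem, where replicate 3 was at 4.17 and replicate 4 at 4.16. Prkcd, an interneuron-list gene, was also highest on replicate 4 of both genotypes in brainstem, at 9.24 in WT and 9.52 in CAG42, where the other arrays lay at 7.09 to 8.03. The interneuron list as a whole did not share this order. Of its 10 genes in brainstem, CAG42 replicate 4 was the highest array for 1 and the lowest for 3. WT replicate 4 was the highest for 2 and the lowest for 1. In cerebellum Prkcd ranged only 1.17-fold and was lowest, at 8.42, on WT replicate 4, the array where Car8 was highest. Whether tissue rich in Prkcd has a part in the Car8 levels was not tested.

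**Figure D4:**
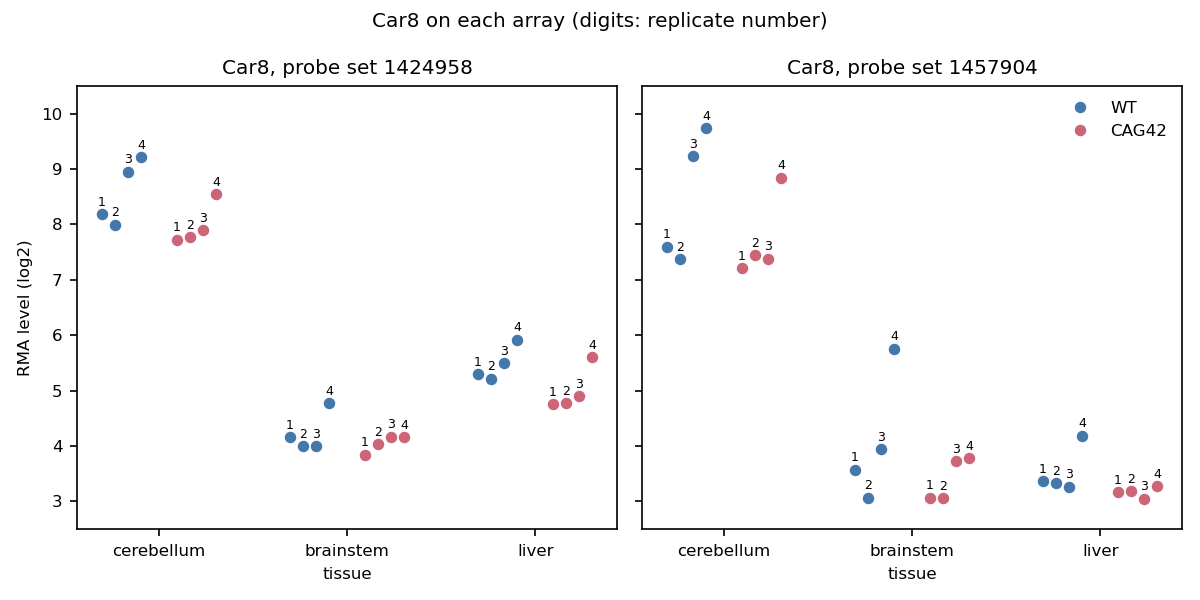
RMA level (log2, vertical axis) of the 2 Car8 probe sets on every array in cerebellum, brainstem and liver (horizontal axis), with digits giving the replicate number in WT and CAG42 groups. Replicate 4 is at or near the top of its group throughout, and in cerebellum 1457904_PM_at ranges from 7.21 to 9.74.

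Spread between arrays of a group differed by gene, by probe set and by region, and is given for the brightest probe sets unless another is named. The SD within groups in cerebellum was 0.068 for Pcp2, smaller for only 9.50% of all probe sets, and in brainstem it was 0.53, with 98.9% of probe sets below it. Calb1 went from 0.057 to 0.29, or from the lowest 4.98% to above 94.0% of probe sets, and Ppp1r17 from 0.15 to 0.56. Rgs8, Pvalb and Aldoc were at 0.043, 0.052 and 0.042 in cerebellum and 0.12, 0.12 and 0.036 in brainstem. For Rgs8 and Pvalb in brainstem, 38.3% and 43.5% of probe sets had smaller SDs. Some dimmer probe sets fell from cerebellum to brainstem: Aldoc 1424714_PM_at from 0.24 to 0.15, Pcp2 1424944_PM_at from 0.20 to 0.11 and Calb1 1458836_PM_at from 0.17 to 0.079. The other dimmer probe sets of Pcp2, Calb1 and Gad1 rose. Car8 had the largest SDs of the members in cerebellum, 0.50 and 0.99 by its probe sets, larger than 98.7% and 99.8% of all probe sets.

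In brainstem Pcp2, Ppp1r17 and Calb1, by their brightest probe sets, were high and low on much the same arrays. Pcp2 was at 8.96, 8.35, 7.87 and 8.74 in WT and 8.81, 8.27, 9.37 and 8.12 in CAG42, a 2.83-fold range over the 8 arrays. Ppp1r17 was at 7.16, 6.25, 6.19 and 7.07 in WT and 7.32, 6.30, 7.44 and 6.40 in CAG42. Calb1 was at 10.48, 9.85, 9.81 and 10.42 in WT and 10.23, 10.02, 10.48 and 10.34 in CAG42. CAG42 replicate 3 and WT replicate 1 were at or near the top and WT replicate 3 at the bottom for all 3 genes, and each genotype held both high and low arrays. Other members with a wide spread in brainstem had another order: Car8 1457904_PM_at was highest on WT replicate 4, and for Gad1 1416562_PM_at CAG42 replicate 3, at 8.69, was the lowest CAG42 array. Pvalb, Rgs8 and Aldoc, by their brightest probe sets, ranged only 1.31-, 1.29- and 1.07-fold over these arrays. Slc1a6 ranged 1.42-fold and shared the order in part. It was lowest on WT replicate 3, at 7.42, and highest on WT replicates 4 and 1, at 7.93 and 7.86.

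Some granule cell markers moved with them, and other lists did so in part. Gabra6, the granule cell GABA receptor subunit, was at 8.72, 7.95, 7.57 and 8.44 in WT and 8.69, 7.98, 9.05 and 7.58 in CAG42 brainstem, a 2.80-fold range. Cbln3 was at 8.28, 7.89, 7.38 and 8.19 in WT and 8.20, 7.62, 8.53 and 7.46 in CAG42. Neurod1 ranged 1.91-fold with the same highest and lowest arrays, CAG42 replicate 3 and WT replicate 3. Calb2, the fourth granule gene by level, ranged 1.11-fold and did not follow this order.

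Over the whole granule cell list, 8 of 10 genes were measured, and their mean level lay at 7.87 to 8.32 on WT and 7.92 to 8.42 on CAG42 brainstem arrays, against 10.73 to 10.82 and 10.64 to 10.80 in cerebellum. CAG42 replicate 3 was the highest array for 4 of the 8 and for 4 of the 17 member probe sets. It was highest for 8.40% of all probe sets. WT replicate 1 was the highest for more member probe sets, 8 of the 17, but for 1 of the 8 granule genes. It was highest for 15.3% of all probe sets. WT replicate 3 was the lowest for 4 of the 8 and 7 of the 17, where it was lowest for 16.3%. Other lists shared part of this order. WT replicate 1 was the highest for 4 of 5 choroid plexus genes and WT replicate 3 the lowest for 4 of 5. For the 10 Bergmann glia and astrocyte genes these counts were 4 and 3. CAG42 replicate 3 was the highest for 0 of the 5 and 2 of the 10. In WT mice Gabra6, Cbln3 and Neurod1 were 3.88, 3.93 and 3.94 higher in cerebellum than in brainstem, next to 3.92 for Pcp2 and 3.78 for Ppp1r17. Whether cerebellar tissue in the brainstem samples has a part in the Pcp2, Ppp1r17 and Calb1 levels there was not tested.

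**Figure D5:**
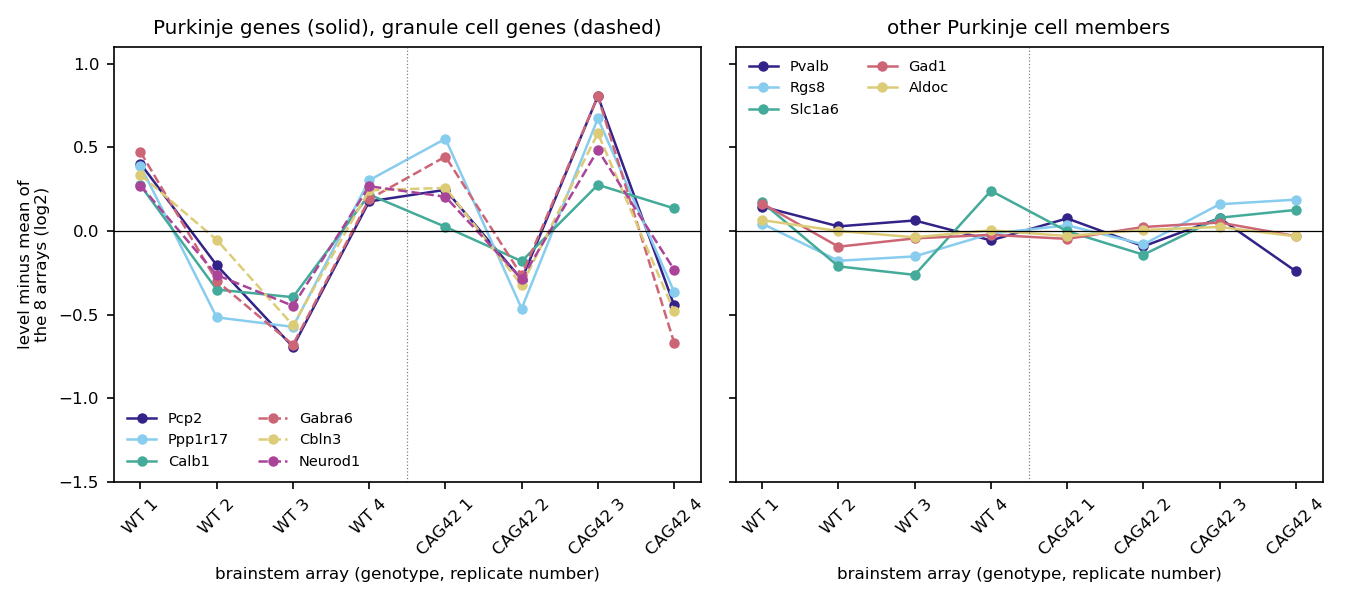
Level minus the mean of the 8 brainstem arrays (log2, vertical axis) on each array (horizontal axis, genotype and replicate number) for Pcp2, Ppp1r17 and Calb1 (solid) with 3 granule cell genes (dashed) in the left panel and the members Pvalb, Rgs8, Slc1a6, Gad1 and Aldoc in the right panel. The left lines mostly rise and dip together and the right lines stay nearer to 0. Of the right lines Slc1a6 has the widest range, 1.42-fold against 1.59-fold for Calb1, and it is also lowest on WT replicate 3. Pcp2 runs from 7.87 on WT replicate 3 to 9.37 on CAG42 replicate 3, and Gabra6 runs between the same arrays, from 7.57 to 9.05.

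None of the members was called between genotypes in brainstem (0 of 17 probe sets, where 0.0155% of all were called), and none separated the groups without overlap, where 3.70% of all did. At an unadjusted p under 0.05, 1 of 17 passed, where 4.17% of all did. That was Calb1 1448738_PM_at, at 5.96, 5.64, 5.55 and 5.61 in WT and 5.29, 5.10, 5.80 and 5.20 in CAG42. CAG42 replicate 3 lay among the WT arrays and the other CAG42 arrays lay below them all, so that the difference was -0.35 (95% interval -0.59 to -0.10; limma, unadjusted p = 0.00742, adjusted p = 1.00; exact permutation test, two-sided, p = 0.114). Without that array it was -0.50 and still not called (limma, adjusted p = 0.183). Pcp2 differed by 0.16 (95% interval -0.32 to 0.64) with all arrays and by -0.08 without CAG42 replicate 3. Brainstem arrays fitted alone gave 0 of 17 calls, 1 at an unadjusted p under 0.05 and a lowest adjusted p of 0.755 (limma). That fit called only 6 of all 45037 probe sets.

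In liver 0 of 17 were called, where 0.147% of all probe sets were, and 1 passed at an unadjusted p under 0.05, where 8.61% of all did. This was Aldoc 1451461_PM_a_at, at 8.03, 7.52, 7.49 and 7.40 in WT and 8.02, 7.86, 7.95 and 7.84 in CAG42 liver. WT replicate 1, the liver array with the low weight, was as high as the CAG42 arrays and the other WT arrays were below them all. The difference was 0.31 (95% interval 0.11 to 0.50; limma, adjusted p = 0.283), and without that array it was 0.45 and called (limma, adjusted p = 0.000695). Calb1 1456934_PM_at depended on the same array, which was at 3.72 where the other WT livers were at 5.23 to 5.74 and the CAG42 livers at 4.31 to 5.28. Its difference went from -0.24 (limma, adjusted p = 0.904) to -0.68 without it (limma, adjusted p = 0.0444).

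Calb1 1448738_PM_at was the 1 of 17 probe sets without overlap in liver, where 2.76% of all had none. It was at 3.55, 3.52, 3.59 and 3.68 in WT and 3.50, 3.29, 3.23 and 3.38 in CAG42 liver, so that each CAG42 array was lower, at a difference of -0.24 (limma, adjusted p = 0.603; exact permutation test, two-sided, p = 0.0286). All of these levels lie below the median of their arrays. Liver arrays fitted alone gave 0 of 17 calls, 3 at an unadjusted p under 0.05 and a lowest adjusted p of 1.00 (limma). That fit called 0 of all 45037 probe sets, so its 0 of 17 says nothing about the members in particular. Set side by side for cerebellum, brainstem and liver, this probe set differed by -0.19, -0.35 and -0.24, while the brightest Calb1 probe set differed by -0.07, 0.13 and -0.03.

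The genotype effect in cerebellum was also tested directly against that in the other tissues. Of the 17 probe sets, 0 were called for cerebellum minus brainstem, where 0.00222% of all were, and 0 for cerebellum minus liver, where 0.00888% were (limma). At an unadjusted p under 0.05, 0 and 1 passed. The lowest p among them was for Aldoc 1451461_PM_a_at in cerebellum minus liver, a difference of effects of -0.36 (limma, unadjusted p = 0.0125, adjusted p = 1.00).

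Beyond the 9 members, 16 of 25 other genes associated with Purkinje cells were measured by a probe set of 1 gene. In WT mice 10 of the 16 were called higher in cerebellum than in brainstem, 3 lower and 3 neither. Of all probe sets, 18.8% were called higher and 28.2% lower. The higher ones were Stk17b (3.40), Homer3 (2.79), Gng13 (2.30), Lhx1 (2.26), Cacna1a (1.93), Rora (1.23), Plcb3 (1.13), Plcb4 (0.77), Pcp4 (0.69) and Dner (0.55), all as log2 differences. Cbln4, Foxp2 and Bcl11a were lower, by -4.72, -2.21 and -0.86, so that this wider list was less uniform by region than the 9 members.

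None of the 16 was called between genotypes in cerebellum, where 0.0444% of all probe sets were (limma). The median difference was -0.03, and 3 had an unadjusted p under 0.05, where 3.59% of all did (limma). Bcl11a, a zinc finger transcription factor, was at 7.14, 7.11, 7.17 and 7.22 in WT and 7.55, 7.48, 7.61 and 7.57 in CAG42 cerebellum. All CAG42 arrays were higher, by 0.39 (95% interval 0.23 to 0.55; limma, adjusted p = 0.0762), and it passed the threshold under 3 other ways of processing given in the closing section. Its genotype effect differed between cerebellum and liver by 0.75 (limma, adjusted p = 0.00640), and the liver effect within it, -0.36, is between levels of 3.24 in WT and 2.88 in CAG42 that lie below the liver array medians and cannot be told from background. Ebf2, another transcription factor, was at 5.43, 5.19, 5.61 and 5.58 in WT and 4.44, 5.18, 5.09 and 5.11 in CAG42, each CAG42 array being lower (log2 difference -0.50; limma, adjusted p = 0.622). Lhx1, a LIM homeodomain factor of Purkinje cells, differed by -0.38 with overlapping arrays (limma, unadjusted p = 0.0152). The next by p were Homer3 at 0.17, Lhx5 at 0.21 and Sphk1 at 0.14, none with an unadjusted p under 0.05.

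Lists for other cells in the tissue were counted the same way in cerebellum, and 0 genes were called between genotypes in any of them (limma). Over all probe sets 0.0444% were called and 3.59% had an unadjusted p under 0.05. The median differences were -0.03 over 8 granule cell genes, 0.08 over 10 interneuron genes, -0.05 over 10 Bergmann glia and astrocyte genes, -0.03 over 4 oligodendrocyte genes and 0.08 over 6 hepatocyte genes, with 0 at an unadjusted p under 0.05, next to -0.06 for the 9 members. Choroid plexus genes were more variable, with a median of 0.91 and 4 of 5 above 0, of which 3 had an unadjusted p under 0.05. Their mean level ran from 5.87 to 8.09 on WT and from 7.49 to 8.17 on CAG42 cerebellum arrays, and Ttr was lowest on WT replicate 4, at 9.73 against 11.88 to 12.83 on the other cerebellum arrays. Blood genes had a median of 0.62 over 3 genes, of which 2 had an unadjusted p under 0.05, with mean levels of 9.27 to 10.33 on WT and 9.85 to 10.44 on CAG42 arrays. The part of either in the member levels was not tested.

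The genes whose levels were most like those of Pcp2 over the 24 arrays were Pax6 (Pearson r = 0.998), Neurod1 (0.997), Wscd2 (0.996), Trmt9b (0.996) and Fat2 (0.996), members left out. The 24 points share 3 tissues, so these r mostly describe the order of tissues. All 5 were higher in WT cerebellum than in WT brainstem, by 2.73 for Pax6, 3.51 for this Neurod1 probe set, 2.98 for Wscd2, 2.44 for Trmt9b and 4.26 for Fat2. Pax6, Neurod1 and Fat2 are known from granule cells rather than Purkinje cells.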

How the data were processed

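The authors hybridised total RNA of each tissue sample to 1 Affymetrix array; per the labels' processing notes the deposited log2 values were made with RMA in R 2.7.0. They were used without further normalization. Of 45141 probe sets, 104 array controls were left out. Symbols came from the platform annotation, updated through a GRCm38.p6 gene table: 28898 probe sets had 1 gene, 551 several and 15588 none. The labels and the study's methods differ on the extraction kit and RNA amount. Arrays have no read depth, and their number limits the precision.

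The study's methods name a linear model, empirical Bayes and F statistics. Here limma 3.58.1 (R 4.3.3) gave each combination of tissue and genotype its own mean across the 24 arrays, with empirical Bayes and Benjamini-Hochberg adjustment over 45037 probe sets within a comparison. Single probe sets were also compared with an exact permutation test, two-sided. The brightest probe set (mean of 24 arrays) stood for a gene in counts and medians. Named were all 9 members, called genes and the 6 of lowest p among other Purkinje cell genes, up to 4 genes of highest WT cerebellum level in each other list, and the 5 genes most like Pcp2. The members and lists were chosen with earlier results of these data known. The script was tested on simulated data.

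Alternatives were the compared tissues' arrays alone, a filter on dim probe sets (mean log2 below 4.57, leaving 22519), array weights, averaging the probe sets of each gene, quantile normalization within tissue, a replicate block, a random block, an F statistic over the 3 tissues, CAG42 mice or both genotypes for regional contrasts, and leaving out each array. Quantile normalization over all arrays was added after seeing the data. Whether equal numbers pair arrays was checked on deviations from group means. Within a genotype, the 8 pairs of cerebellum and brainstem arrays with the same number had r of 0.224 to 0.375, and 16 of 16 arrays correlated best with their own number. Pairs with liver had r of 0.042 to 0.161 for brainstem, with 16 of 16 best matches. For cerebellum they had 0.078 to 0.285, with 15 of 16. Across genotypes within a tissue r was -0.299 to 0.214, which overlaps the pairs with liver. By best match the numbers pair tissues, with the highest r for cerebellum and brainstem. The r across genotypes lay on both sides of 0 and gave no sign that the numbers pair genotypes. Figures were drawn with Python 3.11.15 and matplotlib 3.10.9. Promoter windows came from RefSeq on GRCm38.p6.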

Additional observations from a re-analysis of the deposited data

Results flagged for a closer look

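In groups of 4 arrays, the highest or lowest array of 9 groups, among 102 looked at, lay far from the others, by a gap that exceeded Dixon's critical value at the 95% level as a share of the group's range. Chance gives about 1 such group in 20.

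For Car8, 1457904_PM_at was highest on CAG42 replicate 4 in cerebellum, at 8.85 against 7.21 to 7.45 (gap 0.8544 of the range), and on WT replicate 4 in liver, at 4.19 against 3.26 to 3.37 (0.8867). Its other probe set, 1424958_PM_at, was highest on CAG42 replicate 4 in liver, at 5.60 against 4.76 to 4.90 (0.8314). All 3 are replicate 4 of their group, and WT replicate 4 also had the highest Car8 level in cerebellum without passing this rule.

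For Aldoc, 1424714_PM_at was lowest on WT replicate 4 in brainstem, at 8.51 against 8.88 to 8.94 (0.8422), and highest on CAG42 replicate 3 in liver, at 3.09 against 2.90 to 2.91 (0.9462). Aldoc 1451461_PM_a_at was lowest on WT replicate 4 in cerebellum, at 13.11 against 13.14 on the others (0.8629), a gap of no practical size. Gad1 1416562_PM_at was lowest on WT replicate 4 in cerebellum, at 9.17 against 9.52 to 9.59 (0.8432). Calb1 1417504_PM_at was lowest on WT replicate 1 in cerebellum, at 12.29 against 12.35 to 12.36 (0.8548). Pcp2 1419085_PM_at was lowest on CAG42 replicate 2 in liver, at 4.23 against 4.74 to 4.81 (0.8834).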

How the results depend on the processing

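Of 185 alternative values for 10 counts of called genes, 179 stayed within 1.5 times the value reported and 6 moved. The 179 include counts that changed, since going from 7 to 9 members called between WT cerebellum and brainstem falls within this rule. Of 144 alternative values for the 9 single genes in cerebellum, 136 kept their direction and side of the threshold and 8 changed sign. The count of members called in liver went from 0 to 1, Aldoc higher in CAG42, with array weights and without liver WT replicate 1 (leave-one-out range 0 to 1), and the count for the genotype effect in cerebellum minus liver went from 0 to 1, Aldoc again, without that array (range 0 to 1). Among other Purkinje cell genes in cerebellum the count went from 0 to 1, Bcl11a higher in CAG42, with array weights, with quantile normalization within tissue and with quantile normalization over all arrays, the last chosen after seeing the data. The sign changes were of differences near 0: Pvalb went from 0.0037 to -0.0031 with array weights and over -0.019 to 0.028 with single arrays left out, Pcp2 from -0.02 to 0.12 with the mean of its probe sets and over -0.047 to 0.021, and Ppp1r17 from 0.07 over -0.0062 to 0.13. With the replicate block, 0 members were called in cerebellum, 7 genes were called between WT cerebellum and brainstem, and among the other Purkinje cell genes 14 were, against 13 without it; no other count changed. Between WT cerebellum and brainstem, 9 of 9 members were called, in place of 7, with averaged probe sets (8 higher, Aldoc lower) and with quantile normalization over all arrays (9 higher). Levels of several probe sets in brainstem and liver lie below the array medians, which limits differences measured against them.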
